A study of Arabidopsis thaliana with 12 samples.

Results

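IQD genes encode plant proteins with an IQ domain, and 6 of them are described here: IQD18 (AT1G01110), IQD19 (AT4G14750), IQD21 (AT3G49260, written iqd21 in the platform annotation), IQD22 (AT4G23060), IQD28 (AT1G14380) and IQD30 (AT1G18840). They were picked by name from the 15 IQD genes that the platform annotation pairs with an unshared probe set on the ATH1 GeneChip, a microarray of Arabidopsis thaliana. The array table holds 22746 tested probe sets, and each of the 6 genes is measured by 1 of them. The choice was made with results of these data in view, and which values decided it is not recorded. All differences of the 6 genes are therefore given as a description, with standard errors and calls but with no p-value. The calls support nothing about the 6 genes as a group.

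Col-0, the wild type, and the mutant siz1-3 were each sampled as controls and following 2 h of dehydration (drought in the sample labels), giving 4 groups of 3 arrays. Only 1 mutant allele of SIZ1, whose product is a ligase for the protein modifier SUMO, was used. All plants were labelled as 3 weeks old, or as 21 days for Col-0 control replicate 1. No tissue is named and nothing says that replicates came from separate batches of plants, so any p-value reflects just the variation among these arrays, which may be technical. The 3 arrays per group limit the precision of every difference.

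IQD proteins bind calmodulin and calmodulin-like proteins, the calcium sensors of the cell, through their IQ motifs. Many of them lie along microtubules or at the plasma membrane, where they are thought to act as scaffolds that bring calcium signals and kinesin light chain-related proteins to the cytoskeleton. Altered amounts of single IQD proteins are known to change cell shape and plant growth.

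Signals below are in the linear units of the deposited table, with the SD over 3 arrays as error. A log2 change is the difference of group means of log2(signal + 16) with its standard error, so it understates the change of dim genes. A gene is called higher or lower where limma's Benjamini-Hochberg adjusted p over all probe sets is under 0.05. The 4 comparisons between pairs of groups share arrays with each other. Each array had been scaled to the same mean, and array medians still ran from 84.7 to 88.2 in control plants and from 65.5 to 72.7 in dehydrated ones. Subtracting the array medians moves the median log2 change of all probe sets by 0.22 for dehydration in Col-0, 0.34 for dehydration in siz1-3, 0.10 between genotypes after dehydration and 0.13 in the interaction. Quantile normalization moves it by 0.13 for dehydration in siz1-3, and log2 changes are to be read relative to these shifts.

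The genotype labels were checked on SIZ1. Its brighter probe set stood between 286 and 465 on the Col-0 arrays and between 81.5 and 177 on the siz1-3 arrays, without overlap. The second, dimmer SIZ1 probe set ran in the opposite direction, from 2.85 to 34.2 in Col-0 and from 60.3 to 111 in siz1-3, and the position of either one relative to the mutation is not known here. The ratio of 3' to 5' signal of the actin controls, a sign of RNA quality, ran from 8.29 to 18.95 on control arrays and from 12.9 to 20.2 on dehydrated ones. The same ratio of the GAPDH controls was much lower, from 1.08 to 1.74 on control arrays and from 1.14 to 1.39 on dehydrated ones. A listed gene counts here as measured only where the annotation pairs it with an unshared probe set, and 8730 probe sets are not listed there. Of 15 green leaf markers, 3 were measured (RCA, LHCB4.1 and LHCB4.2). Their summed signal was 29675 to 30948 in control Col-0, 17795 to 18669 in dehydrated Col-0, 21886 to 24950 in control siz1-3 and 12369 to 13401 in dehydrated siz1-3. The 3 genes differed: in the same order of groups, LHCB4.2 had means of 9216, 1973, 4505 and 788. RCA had means of 8422, 6071, 8323 and 4433, and LHCB4.1 of 12843, 10167, 10131 and 7750. The sum of 3 of 12 root markers ran from 915 to 992, 718 to 1145, 649 to 749 and 474 to 515 in the same order of groups, most of it from BGLU23, with EXPA7 and EXPA18 at or under 32.5. For 3 of 8 guard cell markers the sum was 165 to 246 in control and 87.1 to 138 in dehydrated Col-0. In siz1-3 it was 135 to 192 in control and 57.6 to 74.5 in dehydrated plants. Measured were FAMA, which made up most of the sum, SPCH, and MUTE at or under 16.5. These are genes of stomatal development, so their sum is no measure of mature guard cells. The other listed ones (MYB60, OST1, KAT1, SLAC1 and TGG1) were not measured in this sense. Of 8 flower markers 0 were measured in this sense, and the names of 2 matched several genes and were left out. The green leaf sum and the sum of FAMA, SPCH and MUTE were lower in the dehydrated group of each genotype. So were IQD19, IQD21, IQD28 and IQD30 below, while IQD22 ran the other way. The root sum overlapped between control and dehydrated Col-0 and was lower in dehydrated siz1-3. The part of these levels in the results was not tested. In such bulk samples, fewer cells of a type and less RNA per cell cannot be told apart.

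**Figure D1:**
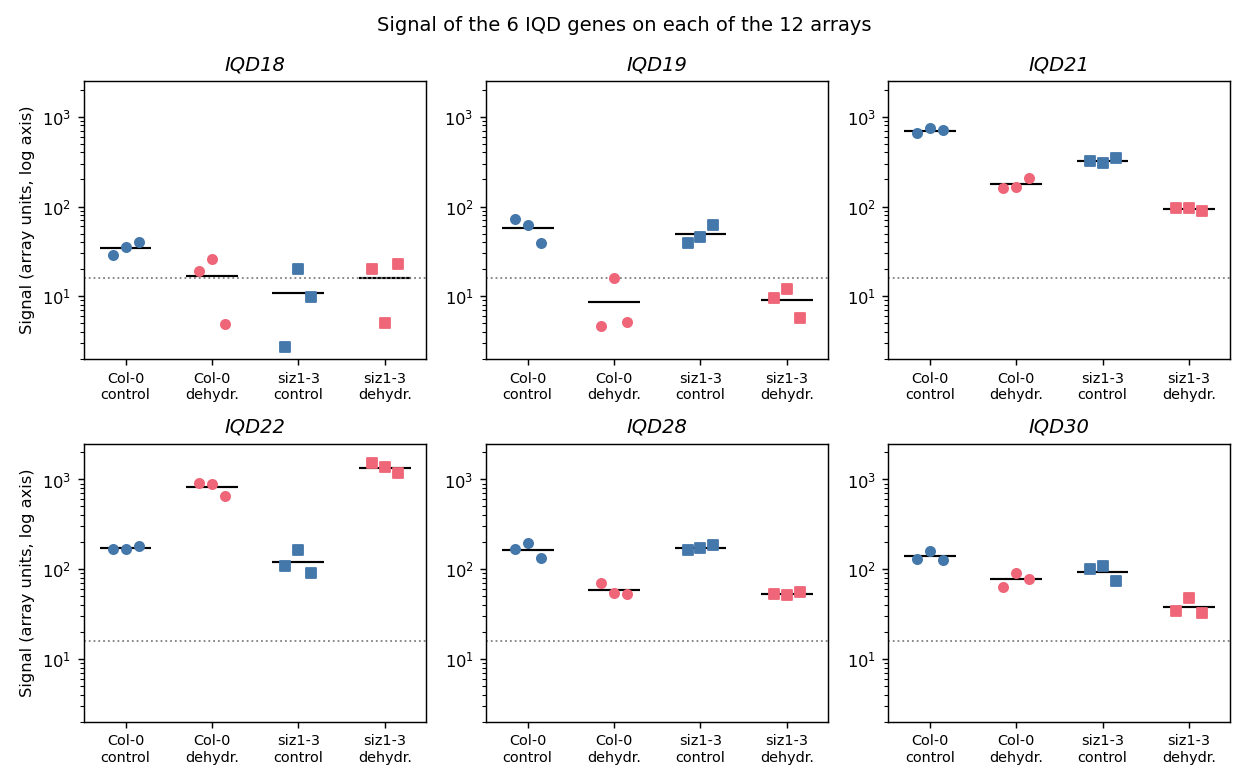
Signal of each of the 6 IQD genes on the 12 arrays, on a log axis in array units; points are arrays (circles Col-0, squares siz1-3, blue control, red dehydrated), black lines are means of 3 arrays and the dotted line marks a signal of 16. IQD22 rises from at most 184 to at least 655 with dehydration, while IQD19, IQD21, IQD28 and IQD30 fall and IQD18 stays at or under 40.2 throughout.

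IQD22 went up strongly with dehydration, the opposite of the other called members. This gene has been described as a target of the DELLA proteins, repressors of growth in gibberellin signalling. In Col-0 its signal was 166, 169.7 and 184 on the control arrays and 916, 882 and 655 on the dehydrated arrays. For siz1-3 the control arrays read 107, 165 and 89.97 and the dehydrated ones 1522, 1370.4 and 1181. Every dehydrated array lay above every control array, and the 3 dehydrated siz1-3 arrays lay above the 3 dehydrated Col-0 arrays. Group means were 173 ± 9.31 and 818 ± 142 in Col-0, and 121 ± 39.4 and 1358 ± 171 in siz1-3. The mean signal was thus 4.72 times the control value in Col-0 and 11.2 times in siz1-3.

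On the log2 scale IQD22 was called higher by 2.13 ± 0.19 in Col-0 and by 3.36 ± 0.19 in siz1-3. Its interaction of genotype and dehydration, 1.23 ± 0.27, was the one interaction called among the 6 genes, and was called under all 19 alternatives run for it. The estimated genotype difference of IQD22 changed sign with dehydration, though only the difference after dehydration was called. Under control conditions siz1-3 stood at a log2 change of -0.50 ± 0.19 against Col-0, not called although the arrays did not overlap. Without siz1-3 control replicate 2, which read 165 against 107 and 89.97 in the other arrays of its group, IQD22 was called lower at -0.73, and it was called at the same -0.50 among the brightest 60% of probe sets alone. After dehydration IQD22 was called higher in siz1-3 by 0.73 ± 0.19. That call ended without Col-0 dehydration replicate 3 (0.58) or without siz1-3 dehydration replicate 1 (0.64).

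IQD21 fell with dehydration in both genotypes and was also lower in siz1-3 in both conditions. Its signal was 653, 747 and 704 in control Col-0 and 161, 166 and 207 in dehydrated Col-0. For siz1-3 the control arrays gave 321, 306 and 349 and the dehydrated arrays 95.7, 95.7 and 89.4. None of the 4 groups overlapped, and their order was control Col-0, control siz1-3, dehydrated Col-0 and dehydrated siz1-3. Dehydration lowered the mean of IQD21 from 701 ± 47.2 to 178 ± 25.4 in Col-0, a log2 change of -1.89 ± 0.12. In siz1-3 it went from 325 ± 21.6 to 93.6 ± 3.61, a log2 change of -1.64 ± 0.12.

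Against Col-0, IQD21 in siz1-3 changed by -1.07 ± 0.12 under control conditions and by -0.82 ± 0.12 after dehydration. All 4 differences of IQD21 were called, and they were called under every alternative run. The interaction was 0.25 ± 0.17, not called, so a smaller drop in siz1-3 was not shown. Of the 6 genes, only IQD21 was called lower in siz1-3 in both conditions, and IQD30 joined it under 6 of 20 alternatives.

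IQD28 and IQD19 also fell with dehydration, and their signals overlapped between the genotypes. IQD28 read 170.1, 194 and 132 in control Col-0 and 69.4, 54.1 and 53.4 in dehydrated Col-0. The control siz1-3 arrays of IQD28 gave 165, 172 and 186 and the dehydrated ones 52.7, 52.2 and 55.7. Dehydrated and control arrays of IQD28 did not overlap in either genotype, whereas the 2 genotypes overlapped in both conditions. The IQD28 means went from 165 ± 31.3 to 58.98 ± 9.04 in Col-0 (log2 change -1.27 ± 0.14) and from 174 ± 10.8 to 53.5 ± 1.89 in siz1-3 (-1.45 ± 0.14). Both drops were called under all alternatives. Between genotypes IQD28 differed by 0.08 ± 0.14 under control conditions and by -0.10 ± 0.14 after dehydration, neither of them called.

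For IQD19 the control arrays read 72.2, 62.6 and 39.3 in Col-0 and 39.2, 45.6 and 62.0 in siz1-3. The dehydrated arrays read 4.68, 15.8 and 5.22 in Col-0 and 9.53, 12.1 and 5.70 in siz1-3. All 6 dehydrated arrays of IQD19 thus lay under a signal of 16, the pseudocount of the fit. The IQD19 means were 58.0 ± 16.9 and 8.57 ± 6.27 in Col-0, and 48.9 ± 11.8 and 9.10 ± 3.20 in siz1-3. IQD19 was called lower in Col-0 at -1.59 ± 0.21 and in siz1-3 at -1.36 ± 0.21.

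Because the dehydrated signals are so low, the size of the drop in IQD19 depends on the pseudocount. It was -2.77 in Col-0 and -2.33 in siz1-3 with a pseudocount of 1, and -0.74 and -0.62 with one of 64. With all signals under 32 set to 32, the drop in siz1-3 was -0.59 and no longer called. Genotype differences of IQD19 were -0.18 ± 0.21 under control conditions and 0.05 ± 0.21 after dehydration, not called under any alternative.

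IQD30 had smaller log2 drops than the other 3 on the scale of the fit. For IQD19 this order depends on the scale. With the floor of 32 the IQD19 drop in siz1-3 was -0.59, while that of IQD30 stayed between -1.30 and -0.62 under all alternatives. Its arrays read 131, 159 and 126 in control Col-0 and 63.6, 90.5 and 77.99 in dehydrated Col-0. The siz1-3 arrays of IQD30 gave 99.4, 109.5 and 73.3 in control plants and 34.1, 48.4 and 32.7 in dehydrated ones. The order of group means was control Col-0, control siz1-3, dehydrated Col-0 and dehydrated siz1-3, as for IQD21, but the middle groups of IQD30 overlapped. Its means went from 139 ± 17.6 to 77.3 ± 13.5 in Col-0 (log2 change -0.73 ± 0.17) and from 94.1 ± 18.7 to 38.4 ± 8.67 in siz1-3 (-1.01 ± 0.17), both called under all alternatives. After dehydration IQD30 was called lower in siz1-3 at -0.78 ± 0.17. Under control conditions its difference of -0.50 ± 0.17 was not called, although the arrays of the genotypes did not overlap. The IQD30 control difference was called without siz1-3 control replicate 2 (-0.60), and in all under 6 of 20 alternatives.

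IQD18 was dim everywhere. Its arrays read 28.7, 35.6 and 40.2 in control Col-0 and 19.2, 25.9 and 4.89 in dehydrated Col-0. The siz1-3 readings were 2.75, 20.2 and 9.84 in control plants and 19.9, 5.06 and 22.7 in dehydrated ones. The control Col-0 arrays lay above all 9 others, and the other 3 groups overlapped. The IQD18 means were 34.8 ± 5.76, 16.7 ± 10.8, 10.9 ± 8.80 and 15.9 ± 9.50 in the same order.

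One difference of IQD18 was called, a lower level in siz1-3 under control conditions at -0.96 ± 0.30. That call held under only 7 of 19 alternatives. It ended when any of these arrays was left out: Col-0 control replicates 1 (-1.05), 2 (-0.95) and 3 (-0.89), siz1-3 control replicates 1 (-0.73) and 3 (-0.96), Col-0 dehydration replicate 1 and siz1-3 dehydration replicates 1 and 3 (-0.96 each). Dehydration gave IQD18 log2 changes of -0.69 ± 0.30 in Col-0 and 0.25 ± 0.30 in siz1-3, neither of them called, with an interaction of 0.94 ± 0.43 that was not called either.

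**Figure D2:**
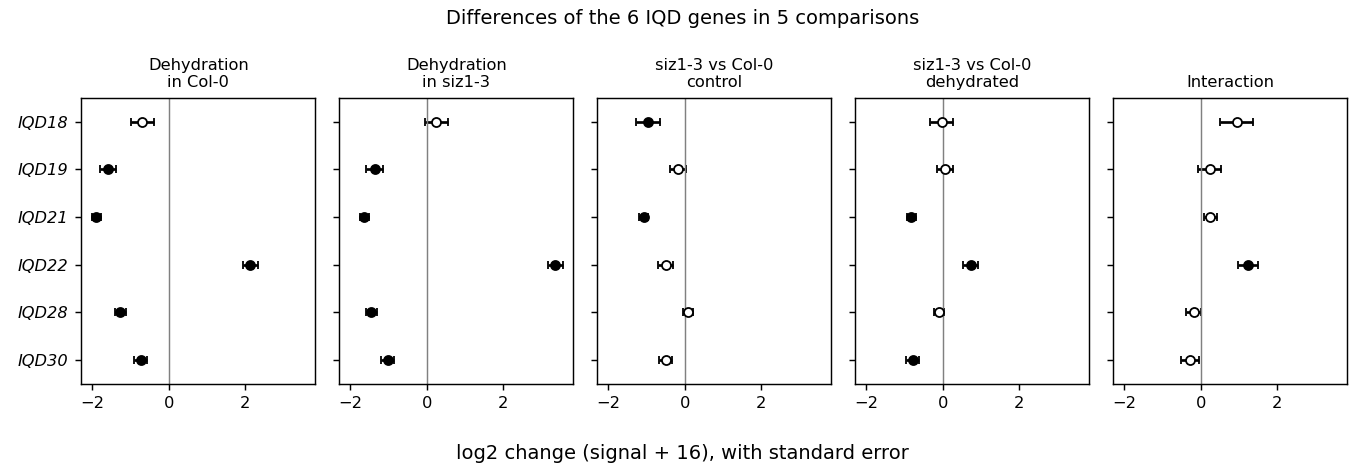
Log2 change of the 6 IQD genes in 5 comparisons (x axis, log2 of signal + 16, bars are standard errors; filled points are called, open points are not). In the dehydration panels IQD22 lies at 2.13 and 3.36 while IQD19, IQD21, IQD28 and IQD30 lie between -1.89 and -0.73.

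Among the 6 genes, 1 was called higher and 4 were called lower with dehydration of Col-0, where 13.5% of all probe sets were called higher and 23.5% lower (37.1% in either direction). The same counts, of the same genes, were found in siz1-3, where 15.3% of all probe sets were called higher and 31.8% lower (47.1% in either direction). Between genotypes under control conditions 0 were called higher and 2 lower (IQD18 and IQD21), beside 8.9% and 8.49% of all probe sets (17.4% together). After dehydration 1 was called higher (IQD22) and 2 lower (IQD21 and IQD30), beside 12.4% and 19.1% (31.5% together). In the interaction 1 was called higher and 0 lower, beside 3.84% and 4.96% (8.81% together). The arrays of the groups compared did not overlap for 6 of the 6 genes on dehydration of Col-0, against 45.5% of all probe sets, and for 5 of 6 in siz1-3, against 55.9%. Between genotypes they did not overlap for 4 under control conditions, against 32.3%, and for 3 after dehydration, against 44.9%. Median log2 changes of the 6 were -0.999 and -1.19 for dehydration in Col-0 and siz1-3, against -0.09 and -0.16 over all probe sets. Since the genes may have been picked on these very differences, nothing is read from the counts.

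Across the 12 arrays the 4 dehydration-lowered genes varied alike. Pearson's r between pairs of IQD19, IQD21, IQD28 and IQD30 ran from 0.75 (IQD28 with IQD30) to 0.94 (IQD19 with IQD28). IQD22 ran against each of them, from -0.77 with IQD30 to -0.96 with IQD28. IQD18 followed none closely, with r from -0.07 to 0.42. All these values share the same 12 arrays and mostly reflect the differences between the 4 groups.

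Named genes with the most similar profile over the 12 arrays were sought for each IQD gene among all probe sets of exactly 1 gene. For IQD21 the 3 closest, all with r = 0.99, were AT1G66890, AT1G35420 and AT3G06770. IQD22 was closest to AT3G43240, AT3G52220 and AT5G12340 (r = 0.99 each) and IQD28 to AT5G51560 (0.99), AT1G78890 (0.98) and AT1G65070 (0.98). IQD19 was followed most closely by AT5G66330 (0.98), by AGL87 (0.97), which encodes an AGAMOUS-like MADS-box factor, and by AT5G53940 (0.96). The closest profiles to IQD30 were FOLB2 (0.98), which encodes an enzyme of folate synthesis, AT4G00780 (0.98) and AT3G42630 (0.98). For IQD18 the closest were AT4G14970 (0.91), AT5G03370 (0.89) and AT5G18630 (0.88). No p-values are given for these correlations, which share the arrays and the group differences.

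**Figure D3:**
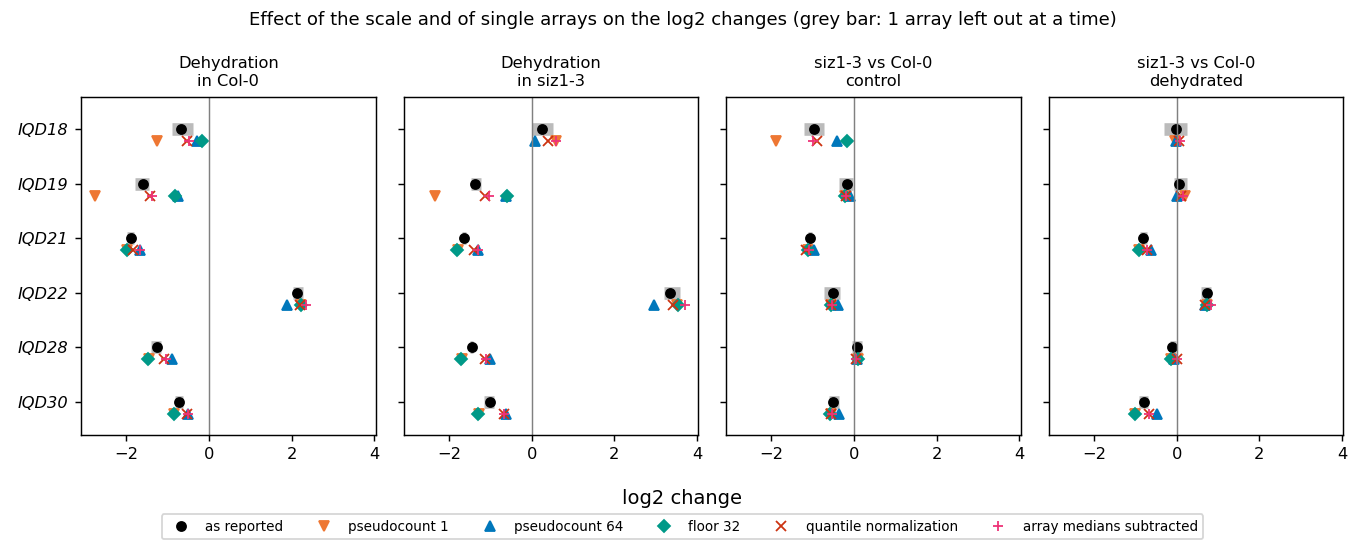
Log2 change of the 6 IQD genes in the 4 comparisons of pairs of groups under other settings (x axis log2 change; black points as reported, coloured marks another pseudocount, a floor or another normalization, grey bars the range with 1 array left out at a time). IQD19 in Col-0 moves from -1.59 to -2.77 with a pseudocount of 1 and to -0.74 with one of 64, while IQD21 stays between -1.99 and -1.66 there.

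The other 9 IQD genes with a probe set of their own set the 6 in their family. Of them, IQD23 had the largest change of any comparison, 0.97 ± 0.12 for dehydration in siz1-3, which lies beside the largest of IQD30 (-1.01 ± 0.17) and IQD18 (-0.96 ± 0.30) among the 6. Next came IQD26 at -0.92 ± 0.16 between genotypes after dehydration, IQD33 at -0.85 ± 0.24 between genotypes under control conditions and IQD31 at -0.80 ± 0.16 for dehydration in siz1-3. The largest changes of IQD15, IQD32, IQD24, IQD27 and IQD16 had sizes from 0.20 to 0.62. Thus size of change alone does not separate the 6 from the 9.

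IQD23 was higher with dehydration and in siz1-3. Its arrays gave 99.3, 80.5 and 103 for control Col-0, 159, 144 and 158 for dehydrated Col-0, 156, 142 and 131 for control siz1-3, and 308, 316 and 264 for dehydrated siz1-3. The dehydrated siz1-3 arrays of IQD23 lay above all others, as for IQD22, and the control Col-0 arrays lay below all others. IQD31 behaved like IQD30 in its order of groups, with means of 433, 276, 313 and 171 in control and dehydrated Col-0 and control and dehydrated siz1-3.

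Over all 15 IQD genes, 3 were called higher (IQD22, IQD23 and IQD26) and 6 lower with dehydration of Col-0, the latter with IQD15 and IQD31 beside IQD19, IQD21, IQD28 and IQD30. In siz1-3, 2 were higher (IQD22 and IQD23) and 6 lower, with IQD24 and IQD31 beside the same 4. Over all probe sets, 13.5% were higher and 23.5% lower in Col-0, and 15.3% and 31.8% in siz1-3. The IQD15 call held under only 7 of 18 alternatives, and its signals were at most 26.04. It ended without Col-0 control replicate 1 or 2, Col-0 dehydration replicate 2 or 3, siz1-3 control replicate 2, or siz1-3 dehydration replicate 1 or 3 (-0.62 to -0.50). The IQD24 call held under 12 of 20 alternatives, and ended without siz1-3 control replicate 1 or 2 or any dehydrated siz1-3 array (-0.54 to -0.50). That of IQD26 ended without Col-0 control replicate 1 (0.43) or dehydration replicate 3 (0.46), and that of IQD31 in Col-0 after subtraction of array medians (-0.41). After subtraction of array medians the counts were 5 higher and 4 lower in Col-0 and 5 higher and 5 lower in siz1-3. After quantile normalization they were 4 higher and 5 lower in both. IQD16, at most 8.20 on any array, was among the higher ones after median subtraction (0.33 in Col-0, 0.31 in siz1-3). IQD27, at most 21.8, was among those in siz1-3 under both normalizations. Such calls at very low signal carry little weight, and shares of all probe sets under these settings are not given here. The median log2 change of the 15 was -0.50 in Col-0 and -0.21 in siz1-3, and after subtraction of array medians -0.29 and 0.14. Between genotypes 1 was higher (IQD23) and 3 were lower (IQD18, IQD21 and IQD33) under control conditions, beside 8.9% and 8.49% of all probe sets. After subtraction of array medians 6 of the 15 were lower. Omitting 1 array at a time gave 1 to 4 lower under control conditions, with 1 lower without Col-0 control replicate 2 or siz1-3 control replicate 3. The IQD33 call there held under 12 of 19 alternatives, and ended without Col-0 control replicate 1 or 2 or siz1-3 control replicate 2 or 3 (-0.81 to -0.61). It also ended with a pseudocount of 1 (-1.31) and with the floor of 32 (-0.53). After dehydration 2 were higher (IQD22 and IQD23) and 5 lower (IQD21, IQD26, IQD30, IQD31 and IQD32), beside 12.4% and 19.1% of all probe sets. Only 1 of the 15 was higher without Col-0 dehydration replicate 3 or siz1-3 dehydration replicate 1. The IQD32 call ended without Col-0 dehydration replicate 1 (-0.44) or 2 (-0.50) or siz1-3 dehydration replicate 1 (-0.51). IQD22 was the one of the 15 with a called interaction (higher), beside 3.84% of all probe sets called higher and 4.96% lower. Without Col-0 dehydration replicate 3 the interaction of IQD32 was also called, at -0.72.

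**Figure D4:**
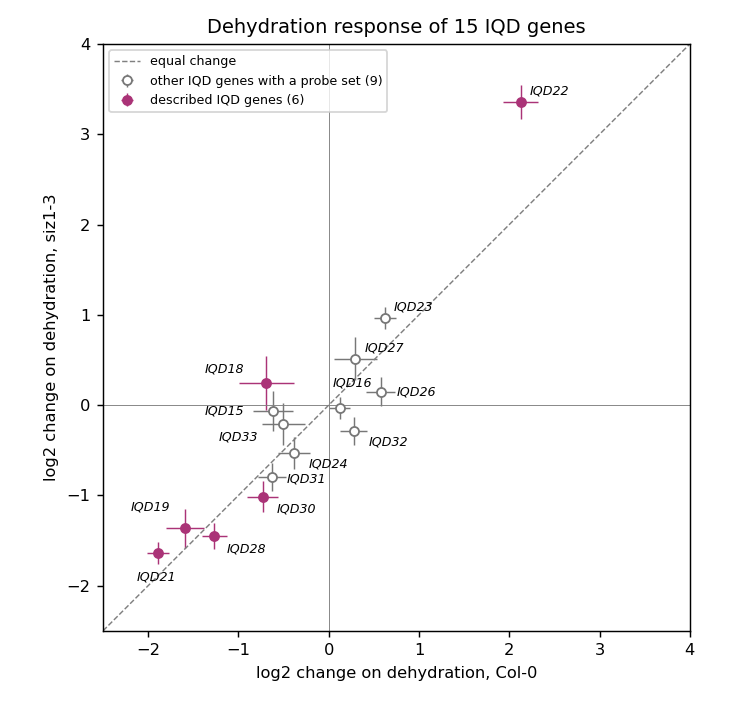
Log2 change on dehydration in Col-0 (x axis) and in siz1-3 (y axis) for 15 IQD genes, with standard errors; filled points are the 6 described genes, open points the other 9 and the dashed line marks equal change. IQD22, at 2.13 and 3.36, is the point farthest above the line.

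Genes of the proteins that IQD scaffolds are known to bind or act beside were read from lists. The lists were chosen with earlier results of these data known. Those described singly below are up to 4 per list with the largest change in these data. Their adjusted p-values are therefore a description and no independent support. Of 59 calmodulin and calmodulin-like genes, 7 were measured, all of them calmodulin-like (CML) genes. With dehydration of Col-0, 0 of the 7 were called higher and 1 lower (CML42), and in siz1-3 4 were higher (CML23, CML37, CML38 and CML41) and 3 lower (CML30, CML42 and CML43). Of all probe sets, 13.5% were higher and 23.5% lower in Col-0, and 15.3% and 31.8% in siz1-3. The 3 lower calls of the CML genes in siz1-3 fell to 0 after subtraction of array medians, to 1 after quantile normalization and to 1 without siz1-3 control replicate 2, dehydration replicate 1 or dehydration replicate 2. Median log2 changes of the 7 were -0.03 in Col-0 and 1.34 in siz1-3. In siz1-3 against Col-0, 4 were higher and 0 lower under control conditions, and 5 were higher and 0 lower after dehydration, beside 8.9% and 12.4% of all probe sets higher.

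CML41, whose protein is known from plasmodesmata and callose deposition in defence, read 63.1, 76.8 and 93.6 in control Col-0 and 61.8, 68.3 and 84.3 in dehydrated Col-0. The siz1-3 arrays gave 475, 482 and 479 in control plants and 1300.0, 1299 and 1296 in dehydrated ones, well above all of Col-0. Its log2 change with dehydration was -0.10 ± 0.13 in Col-0 (limma adjusted p = 0.640) and 1.41 ± 0.13 in siz1-3 (adjusted p = 2.49e-06). The interaction of CML41 was 1.51 ± 0.19 (limma adjusted p = 0.000587).

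CML38, a stress-induced calcium sensor gene, went from 226 ± 69.6 to 355 ± 42.2 in Col-0 (log2 change 0.66 ± 0.26, limma adjusted p = 0.0669) and from 131 ± 49.0 to 729 ± 85.7 in siz1-3 (2.40 ± 0.26, adjusted p = 7.65e-06). The CML38 interaction was 1.74 ± 0.37 (limma adjusted p = 0.0125). In Col-0 the CML38 change was called at the same 0.66 without siz1-3 control replicate 1 (adjusted p = 0.0299) or 2 (adjusted p = 0.0484), and under 4 other settings. CML23 went from 55.5 ± 29.4 to 50.3 ± 8.01 in Col-0 and from 38.1 ± 2.95 to 149 ± 43.7 in siz1-3, with an interaction of 1.61 ± 0.38 (limma adjusted p = 0.0219). That call ended without siz1-3 dehydration replicate 2 (1.46, adjusted p = 0.0585) or 3 (1.52, adjusted p = 0.0580), and with a pseudocount of 1 (1.91, adjusted p = 0.0614).

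CML37, which is known from responses to wounding and drought, went from 38.99 ± 21.4 to 45.2 ± 7.20 in Col-0 and from 265 ± 28.0 to 693 ± 38.3 in siz1-3. It was higher in siz1-3 by 2.44 ± 0.24 under control conditions (limma adjusted p = 1.58e-05) and by 3.54 ± 0.24 after dehydration (adjusted p = 5.37e-07). Its interaction of 1.1 ± 0.34 was not called (adjusted p = 0.0674) and was called at 1.46 without Col-0 control replicate 2 (adjusted p = 0.00155), and under 4 other settings. Under control conditions CML23 and CML38 did not share the higher level in siz1-3, with log2 changes of -0.32 ± 0.27 and -0.73 ± 0.26 (limma adjusted p = 0.494 and 0.0760). The latter was called lower without Col-0 control replicate 2 (-1.0, adjusted p = 0.0172) or siz1-3 control replicate 2 (-0.96, adjusted p = 0.0309). Set beside these, IQD22 had the same order of group means as CML38: dehydrated siz1-3, dehydrated Col-0, control Col-0 and control siz1-3. The control groups of CML38 overlapped, however, unlike those of IQD22. Group means of CML23, CML37 and CML41 stood in other orders.

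Of 45 genes for tubulins, microtubule-associated or regulatory proteins and kinesin light chain-related proteins, 9 were measured, none of the last kind. With dehydration 0 were called higher and 7 lower in Col-0, and 0 higher and 6 lower in siz1-3, beside 23.5% and 31.8% of all probe sets lower. After subtraction of array medians 4 were lower in Col-0, and 3 were lower and TUA1 higher in siz1-3. In siz1-3 against Col-0, 0 were higher and 4 lower under control conditions, and 0 higher and 5 lower after dehydration, beside 8.49% and 19.1% of all probe sets lower. The latter count was 3 without any one of the dehydrated Col-0 replicates 1 and 2 or the dehydrated siz1-3 replicates, and 3 after subtraction of array medians. Median log2 changes of the 9 were -0.53 and -0.61 for dehydration in Col-0 and siz1-3, and -0.40 and -0.32 between genotypes under control conditions and after dehydration. Tubulin genes are close copies of each other, so their probe sets may share signal.

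TUB5, a beta-tubulin gene, read 2009, 1944 and 2104 in control Col-0 and 714, 616 and 675 in dehydrated Col-0. For siz1-3 it gave 1344, 1312 and 1072 in control plants and 392, 314 and 323 in dehydrated ones. Its 4 groups did not overlap and stood in the order seen for IQD21, and its log2 changes with dehydration were -1.57 ± 0.13 in Col-0 and -1.81 ± 0.13 in siz1-3 (limma adjusted p = 7.36e-07 and 1.70e-07). In TUB6 and TUB1, also beta-tubulin genes, dehydration gave -0.90 ± 0.15 and -1.17 ± 0.12 in Col-0 (adjusted p = 0.000373 and 5.07e-06) and -0.998 ± 0.15 and -0.85 ± 0.12 in siz1-3 (adjusted p = 0.000123 and 6.29e-05). Both TUB6 and TUB1 were lower in siz1-3 under control conditions too, with log2 changes of -1.08 ± 0.15 and -1.23 ± 0.12 (limma adjusted p = 0.000237 and 1.14e-05). SPR1 (SPIRAL1), a microtubule-associated protein gene needed for straight cell elongation, resembled IQD28 in that it fell with dehydration, with log2 changes of -0.77 ± 0.12 in Col-0 and -0.61 ± 0.12 in siz1-3 (limma adjusted p = 0.000195 and 0.000850), and differed between genotypes by -0.15 ± 0.12 and 0.00 ± 0.12 (adjusted p = 0.445 and 0.991). The SPR1 call in siz1-3 ended after subtraction of array medians (-0.27, adjusted p = 0.0780).

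COB (COBRA), a gene for oriented cellulose deposition, was the 1 measured member of 12 genes of primary wall cellulose synthesis. Its signal was 1622 ± 139 in control Col-0, 1289 ± 129 in dehydrated Col-0, 1246 ± 83.7 in control siz1-3 and 729 ± 25.8 in dehydrated siz1-3. It fell with dehydration of siz1-3, with a log2 change of -0.76 ± 0.12 (limma adjusted p = 0.000136) and was lower in siz1-3 after dehydration, at -0.80 ± 0.12 (adjusted p = 0.000198). The drop of COB in Col-0 (-0.33 ± 0.12, limma adjusted p = 0.0404) was called under 10 of 20 alternatives. After subtraction of array medians this drop was -0.11 (adjusted p = 0.480). The call also ended when Col-0 control or dehydration replicate 2 or 3 or any dehydrated siz1-3 array was left out (-0.33 to -0.27). The genotype difference of COB under control conditions (-0.38 ± 0.12, adjusted p = 0.0415) was called under 9 of 20. That call ended without Col-0 control replicate 2 or 3 or any one of the 6 siz1-3 arrays (-0.41 to -0.32).

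**Figure D5:**
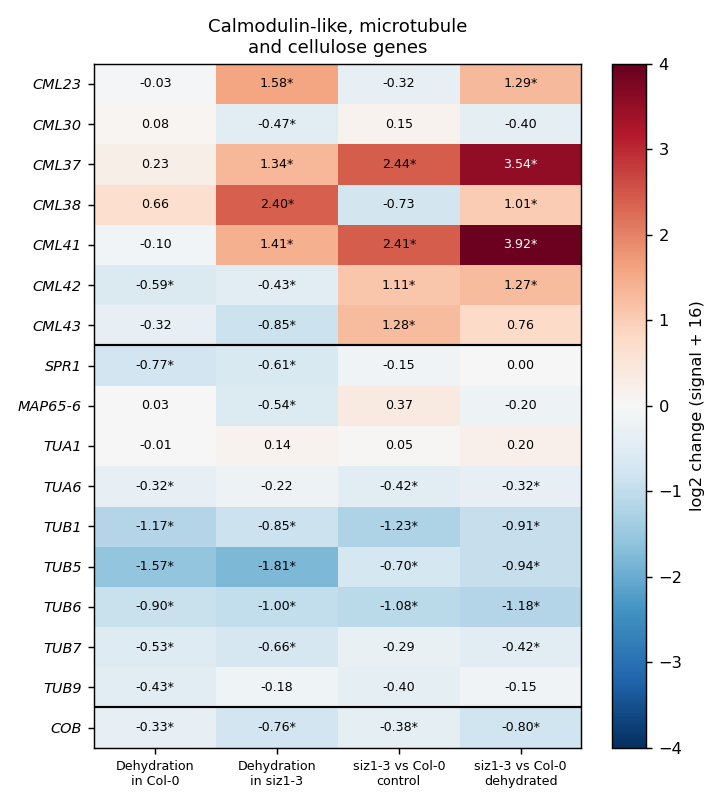
Log2 change (colour and printed number, signal + 16) of the 7 calmodulin-like genes, the 9 microtubule genes and COB, separated by black lines, in 4 comparisons; a star marks a call at adjusted p under 0.05. CML37 and CML41 reach 3.54 and 3.92 in dehydrated siz1-3 against Col-0, and TUB1, TUB5 and TUB6 are negative in all 4 columns.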

How the data were processed

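RNA of 12 samples was extracted with TriZOL, amplified and labelled with biotin, per the labels' protocols, and measured on ATH1 GeneChip arrays. The authors deposited 1 linear intensity for each of 22810 probe sets, with the way the probes were summarised unstated. The 64 control probe sets were left out and 22746 were tested. No detection calls were used. Groups came from the sample titles. log2(intensity + 16) was fitted with limma 3.58.1 in R 4.3.3 (lmFit and eBayes, 1 mean per group over all 12 arrays, 8 residual and 4.14 prior degrees of freedom), and adjusted p-values are limma's over all tested probe sets. Genes were named from the platform annotation, where 13513 probe sets pair with 1 gene, updated through a TAIR10.1 gene table that 13436 of them matched. The fit was tested on simulated data, with results that are not given here and support no call.

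The members and gene lists were chosen with earlier results of these data known. Named are the 6 members, SIZ1, up to 4 genes per list with the largest change, and the 3 closest profiles per member. CML42, CML30, CML43, TUA1 and the IQD genes beyond those 4 were named after their values were seen. Genome positions are left out, since no build is named.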

Additional observations from a re-analysis of the deposited data

Results flagged for a closer look

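Among the genes named here, 5 had a response to dehydration that differed between the genotypes by the interaction term of the fit. IQD22 had an interaction of 1.23 on the log2 scale (4.72 times the control mean in Col-0 and 11.2 times in siz1-3). Among the calmodulin-like genes it was 1.74 for CML38, 1.61 for CML23 and 1.51 for CML41. In these 4 the change was more positive in siz1-3. The brighter probe set of SIZ1, the mutated gene, went the other way with an interaction of -0.83 (limma adjusted p = 0.0478). An interaction was called higher at 3.84% and lower at 4.96% of all probe sets. No group holds enough arrays for a search for outlying arrays.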

How the results depend on the processing

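The 20 alternatives were 2 other pseudocounts, a floor of 32, quantile normalization, subtraction of array medians, the upper 60% of probe sets (which leaves out IQD18 and IQD19), the arrays of the groups compared alone (the same fit for the interaction), the replicate number as a block, and each of 12 arrays left out. The count of IQD genes called lower in siz1-3 under control conditions, 2 as reported, was 1 with a pseudocount of 1 and with the floor of 32, and 1 to 4 with 1 array left out. The count called higher in siz1-3 after dehydration, 1 as reported, was 0 to 1 with 1 array left out. Dehydration and interaction counts of the 6 stayed within 1.5 times under all alternatives run. No called value of the 6 changed sign. IQD16 reversed from -0.03 to a called 0.31 for dehydration in siz1-3 after subtraction of array medians. Its signals were at most 8.20 on any array, under the pseudocount of 16. The subtraction itself moves log2 changes in that comparison by 0.34, so no change of direction of IQD16 is read from this. Whether replicate numbers pair the arrays was not settled. Of 18 same-numbered pairs from different groups, 1 had deviations from the group means correlated above 0.1. Of 12 arrays, 5 correlated best with their own number. Between control and dehydrated arrays, same-numbered r ran from 0.02 to 0.04 in Col-0 and from 0.01 to 0.05 in siz1-3. Unlike-numbered r ran from -0.03 to -0.006 in Col-0 and from -0.05 to 0.002 in siz1-3. With the replicate block, IQD18 in siz1-3 against Col-0 under control conditions (-0.96) lost its call and IQD30 (-0.50) gained one, other calls of the 6 did not change, and the interaction was called at 1783 probe sets in place of 2003. That count was 1271 without siz1-3 dehydration replicate 2 and 1270 without replicate 3. The uncalled values of IQD18 and IQD28 between genotypes after dehydration turned positive under both other normalizations. Low signals limit IQD18 and IQD19 among the 6, as well as IQD15, IQD16, IQD26, IQD27 and IQD33. All results are limited by the 3 arrays per group.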
